A study of Mus musculus with 11 samples.

Results

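The CXC chemokine genes Cxcl1, Cxcl2, Cxcl3, Cxcl9, Cxcl11 and Cxcl16 were followed in BV2 microglia that received an N-terminal piece of apolipoprotein E. The members were chosen by gene symbol from the tables of reads counted per gene. Of the 6 symbols, 5 had a row among the 36529 genes listed for each sample, and Cxcl11 had none and was not analysed here. BV2 is a transformed line of mouse microglia, labelled as strain C57BL/6, and the samples were kept in 4 groups. In one experiment, 3 samples received nApoE4, the fragment of ApoE4 holding residues 1 to 151, at 25 μg/ml for 5 h, and 3 untreated samples (control A) were their controls. In a separate experiment, 2 samples received nApoE3, the same stretch of ApoE3, at 25 μg/ml for 5 h, and 3 untreated samples (control B) were their controls. Both fragments carried a His tag and differ at a single residue. The labels name a PBS vehicle for untreated cells and the methods of the study name conditioned media, so it is not known which one was given to the controls. Each fragment was tested in its own experiment, so fragment and experiment cannot be told apart. The study describes its transcriptome data as averages of 3 independent measurements, or trials. No source used here says that the samples of a group came from separate cultures, so the p-values measure the spread between these samples, which may be technical.

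The libraries of the nApoE4 experiment held 39732710 to 44162511 counts on genes, and those of the nApoE3 experiment held 55809688 to 69768666. Levels are in CPM (counts scaled to library size and a TMM normalization factor). By library size alone, without that factor, 3 counts in a sample correspond to 0.0430 to 0.0755 CPM, which covers counting error only. Of 12 microglia and macrophage markers, 11 averaged over 3 counts per sample and summed to 2289 to 3425 CPM, while P2ry12, a gene that lies wholly inside another gene, was at 0 in all samples. Markers of 7 other cell types summed to at most 25.4 CPM in any sample, which was the oligodendrocyte list, and Mog of that list was at 0. The astrocyte list was at 1.05 to 1.39 CPM in controls and 4.36 to 7.02 CPM in treated samples. Its rise was that of Slc1a2, from 0.999 to 6.43 CPM on average with nApoE4 and from 1.06 to 4.37 with nApoE3. Gfap, Aqp4 and Aldh1l1 of that list were at 0.424 CPM or less in every sample. The neuron list was at 1.93 to 2.49 CPM in control A and 5.26 to 6.27 CPM with nApoE4. Its rise was that of Tubb3, which averaged 5.61 CPM with nApoE4. Rbfox3, Syt1 and Snap25 were at 0.176 CPM or less in every sample of that experiment. The part of either list in the results was not tested. The 4 T cell markers summed to at most 0.211 CPM and the 5 neutrophil markers to at most 1.49 CPM.

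Chemokines are small secreted proteins that attract leukocytes through G protein-coupled receptors. Cxcl1, Cxcl2 and Cxcl3 bind Cxcr2 and recruit neutrophils, and their genes are classic targets of the transcription factor NF-kB. Cxcl9, Cxcl10 and Cxcl11 bind Cxcr3, are induced by interferon and attract activated T cells. Cxcl16 is made as a membrane protein that binds Cxcr6 and is shed from the cell surface by the proteases Adam10 and Adam17. Microglia are the resident macrophages of the brain and release such ligands when activated.

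In GRCm38.p6, the build to which the authors mapped the reads, 5 of the 6 genes lie on chromosome 5. Cxcl3 (chr5:90786101-90788093), Cxcl1 (chr5:90891245-90893121) and Cxcl2 (chr5:90903899-90905938) lie on the plus strand, and Cxcl9 (chr5:92321331-92328079) and Cxcl11 (chr5:92359544-92363296) on the minus strand. Cxcl11 is annotated as a transcribed pseudogene and lies wholly inside Art3. Cxcl16 lies on chromosome 11 (chr11:70454389-70459984, minus strand) and shares 552 exonic bases with Zmynd15 on the opposite strand.

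The 250 bases before the start of Cxcl1, Cxcl2, Cxcl3 and Cxcl9 are shown, since the neutrophil-attracting genes and the T cell-attracting gene are known targets of different pathways. They were taken from RefSeq promoter entries for GRCm38.p6 and are written 5′ to 3′ on the strand of the gene, with the longest run shared by Cxcl1, Cxcl2 and Cxcl3 in capitals.
Cxcl1 (chr5:90890995-90891244, plus strand): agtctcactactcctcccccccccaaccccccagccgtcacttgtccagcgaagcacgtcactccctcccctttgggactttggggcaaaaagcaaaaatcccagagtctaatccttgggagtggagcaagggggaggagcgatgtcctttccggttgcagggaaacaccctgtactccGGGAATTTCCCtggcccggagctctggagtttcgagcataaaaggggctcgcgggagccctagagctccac
Cxcl2 (chr5:90903649-90903898, plus strand): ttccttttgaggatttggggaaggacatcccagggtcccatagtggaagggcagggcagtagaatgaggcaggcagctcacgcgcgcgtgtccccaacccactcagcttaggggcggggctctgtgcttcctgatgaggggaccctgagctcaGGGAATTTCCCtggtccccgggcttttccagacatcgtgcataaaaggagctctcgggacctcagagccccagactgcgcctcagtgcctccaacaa
Cxcl3 (chr5:90785851-90786100, plus strand): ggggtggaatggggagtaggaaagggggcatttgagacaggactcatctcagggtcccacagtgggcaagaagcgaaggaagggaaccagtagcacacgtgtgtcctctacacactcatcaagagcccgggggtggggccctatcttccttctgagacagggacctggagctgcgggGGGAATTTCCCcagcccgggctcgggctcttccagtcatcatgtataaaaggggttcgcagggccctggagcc
Cxcl9 (chr5:92328080-92328329, minus strand): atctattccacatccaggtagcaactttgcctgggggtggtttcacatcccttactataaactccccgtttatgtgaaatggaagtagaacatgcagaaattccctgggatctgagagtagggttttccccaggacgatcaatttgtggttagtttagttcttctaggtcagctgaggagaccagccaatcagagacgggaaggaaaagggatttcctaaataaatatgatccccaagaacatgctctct

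The shared run GGGAATTTCCC begins at position −71 in Cxcl1, −97 in Cxcl2 and −73 in Cxcl3, counted back from the start of the gene. It holds 2 overlapping matches to the NF-kB motif, read on both strands. The run occurs in 14 of 32851 windows of the same length (0.0426%), while the NF-kB motif alone occurs in 7.25% of them. Neither the NF-kB motif nor GAAANNGAAA, the core of the interferon-stimulated response element, occurs in the Cxcl9 window, and GAAANNGAAA occurs in 2.98% of all windows. Of the 11 other genes whose window holds the run, 5 could be tested. With nApoE4, 2 of them were higher and 0 lower, and with nApoE3, 2 were higher and 2 lower, where 28.6% and 33.1% of all genes were higher and 28.6% and 34.6% lower. Hpn, a serine protease, was higher with nApoE4 by 2.65 on the log2 scale (approximate standard error, SE, 0.24, adjusted p = 1.01e-05) and with nApoE3 by 3.00 (SE 0.22, adjusted p = 1.32e-07) in edgeR's quasi-likelihood test. Il16, a chemoattractant cytokine, had 0.73 (SE 0.076, adjusted p = 2.77e-05) and 0.15 (SE 0.036, adjusted p = 0.00283) by the same edgeR test. Gm38983 and Zfp84 were lower with nApoE3, by −0.66 (adjusted p = 0.00248) and −0.38 (adjusted p = 1.69e-05), and Lyzl4 was not called with either fragment. A match is a description of the letters and does not show binding.

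Cxcl2, the ligand known as MIP-2, took nearly all of the reads on the members. Untreated cells held 32, 22 and 17 Cxcl2 reads in control A and 56, 59 and 49 in control B. Cells treated with nApoE4 held 11383, 11007 and 10870 reads, and cells treated with nApoE3 held 15101 and 14326. Every treated sample lay far above every control sample, and treated samples of a group differed little from each other. In bulk RNA, a change in how many cells express a gene and a change in RNA per cell cannot be told apart.

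**Figure D1:**
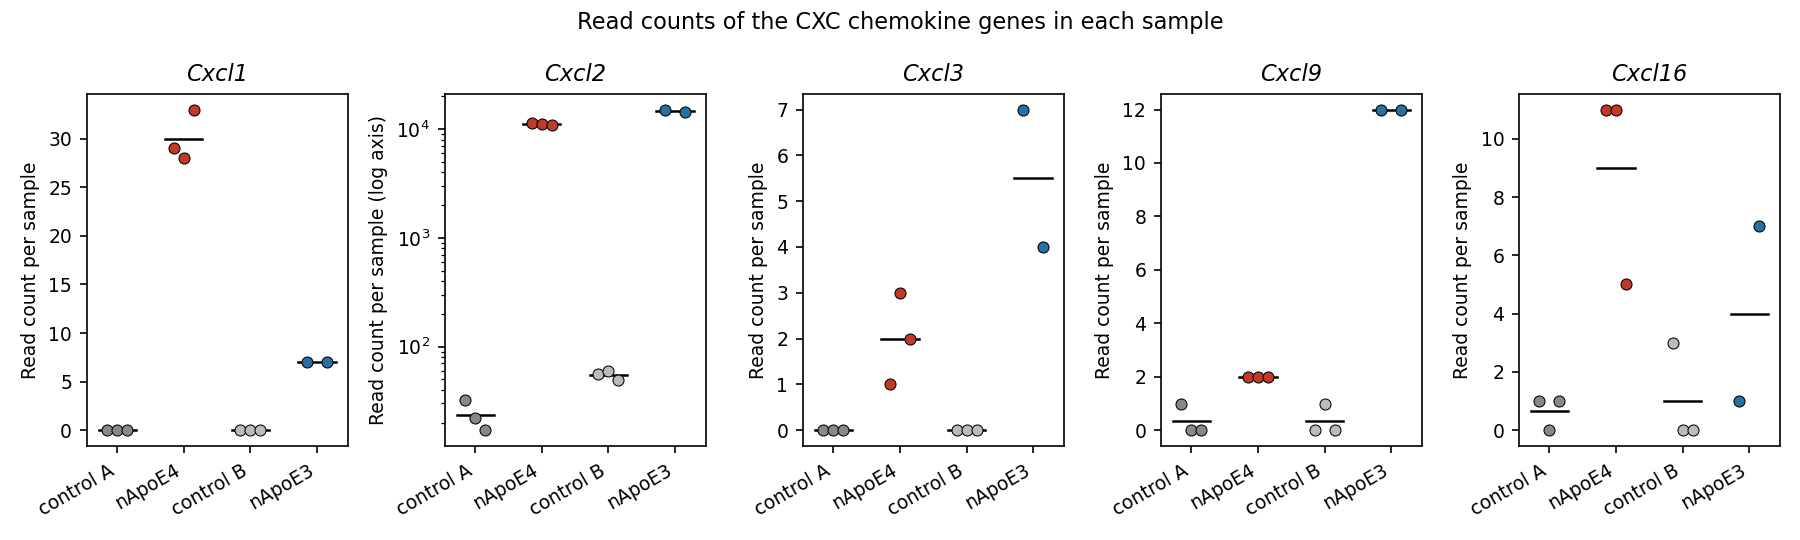
Read counts per sample of the 5 CXC chemokine genes with a row, with 1 point per sample and a line at the group mean, on a log axis for Cxcl2 and linear axes for the others. Cxcl2 sits at 10870 reads or more in all 5 treated samples, and no other member reaches more than 33 reads in any sample.

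On the CPM scale, Cxcl2 rose from 0.535 ± 0.197 (SD, n = 3) in control A to 268 ± 5.04 (SD, n = 3) with nApoE4. This was a 505-fold increase, with a log2 fold change of 8.98 (SE 0.14, adjusted p = 1.97e-10, edgeR's quasi-likelihood test with Benjamini-Hochberg adjustment over all genes tested). It rose from 0.872 ± 0.0799 (SD, n = 3) in control B to 257 ± 4.10 (SD, n = 2) with nApoE3, a 293-fold increase and a log2 fold change of 8.20 (SE 0.048, adjusted p = 1.03e-16, edgeR). Neither call depended on a single sample, since leaving out each in turn gave log2 fold changes of 8.75 to 9.29 for nApoE4 and 8.12 to 8.27 for nApoE3.

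Members that passed the filter on low counts were 2 in each experiment, Cxcl2 and Cxcl1 with nApoE4 and Cxcl2 and Cxcl9 with nApoE3. Both were higher in each case, where 28.6% of all genes tested were higher with nApoE4 and 33.1% with nApoE3. No member tested was lower, against 28.6% and 34.6% of all genes in the same order. With a fold change above 2 required as well, both members were still called in each experiment, against 10.2% of all genes for nApoE4 and 9.60% for nApoE3. Cxcl1 and Cxcl9 passed the filter through their treated samples alone and so had to differ, and these counts add nothing beyond the values of each gene.

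Cxcl1, the ligand known as KC, was at 0 reads in all 6 control samples. It had 29, 28 and 33 reads with nApoE4 and 7 and 7 with nApoE3. The treated groups did not overlap the controls or each other, and its levels were 0.727 ± 0.0903 (SD, n = 3) and 0.122 ± 0.00260 (SD, n = 2) CPM. Against a floor of 3 counts over the control group, the ratio of summed reads was 32.4 with nApoE4 and 7.69 with nApoE3. These ratios leave out the counting error of the treated reads and are not lower limits. The edgeR test called Cxcl1 with nApoE4 (adjusted p = 2.39e-05). Cxcl1 passed the filter on low counts through its nApoE4 samples alone, so this call adds nothing beyond the read counts. With nApoE3 it did not reach the filter on low counts, and a fit without the filter gave an adjusted p of 6.95e-04 (edgeR). Cxcl1 lies near Cxcl2 on the same strand, yet per kilobase of exon the Cxcl2 level was 334 times the Cxcl1 level with nApoE4 and 1905 times with nApoE3.

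Cxcl3, which shares the receptor Cxcr2, was also at 0 reads in all 6 control samples. It had 1, 3 and 2 reads with nApoE4 and 7 and 4 with nApoE3, so each treated sample held at least 1 read. Against the same floor over the control group, the ratio of summed reads was 2.16 with nApoE4 and 6.04 with nApoE3. These ratios also leave out the counting error of the treated reads and are not lower limits. It did not reach the filter on low counts in either experiment. Without the filter, edgeR gave an adjusted p of 0.0643 with nApoE4 and 0.00343 with nApoE3. Of the 75-base windows of Cxcl3 transcripts, 2.78% occur exactly in another gene and 4.57% of those of Cxcl2 do, with 101 windows in each, and reads from such windows cannot be placed on either gene with certainty.

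Cxcl9, the interferon-induced ligand of Cxcr3, had at most 12 reads in a sample. It had 1, 0 and 0 reads in control A and 2, 2 and 2 with nApoE4, and 0, 1 and 0 in control B and 12 and 12 with nApoE3. All treated samples lay above all control samples, and the nApoE3 samples lay above the nApoE4 samples. With nApoE3, Cxcl9 rose by a log2 fold change of 4.84 (SE 0.86, adjusted p = 2.92e-04, edgeR). Cxcl9 passed the filter on low counts through its nApoE3 samples alone, so this call adds nothing beyond the read counts. The ratio of summed reads was 39.5, with a 95% counting interval of 6.45 to 1626. Leaving out single control B samples gave log2 values of 4.31 to 6.67, the highest without the second, which held the only Cxcl9 read of the controls. When either nApoE3 sample was left out, Cxcl9 did not reach the filter and was not called. With nApoE4, the ratio of summed reads was 6.48 with a 95% counting interval of 0.786 to 298, and the fit without the filter gave an adjusted p of 0.196 (edgeR).

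Cxcl16, the membrane-anchored ligand, had 1, 0 and 1 reads in control A and 11, 11 and 5 with nApoE4. It had 3, 0 and 0 reads in control B and 1 and 7 with nApoE3. The nApoE4 samples did not overlap their controls, while the nApoE3 samples did. The ratio of summed reads was 14.6 with nApoE4 (95% counting interval 3.66 to 127) and 4.39 with nApoE3 (1.05 to 25.7). Cxcl16 did not reach the filter in either experiment, and without the filter edgeR gave adjusted p values of 8.18e-04 with nApoE4 and 0.208 with nApoE3. Zmynd15, the gene overlapping Cxcl16, had 6, 10 and 8 reads in control A and 27, 32 and 22 with nApoE4, and 6, 3 and 3 in control B and 20 and 14 with nApoE3. Its log2 fold change was 1.85 (SE 0.29, adjusted p = 4.59e-04) with nApoE4 and 2.18 (SE 0.46, adjusted p = 0.00119) with nApoE3 by edgeR. Reads in the 552 bases the genes share cannot be assigned without strand, which is not given in the sources used here. Whether such reads take part in the Cxcl16 counts was not tested.

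As a share of all reads on the members, Cxcl2 held 99.6% ± 0.0110 (SD, n = 3) with nApoE4 and 99.8% ± 0.0216 (SD, n = 2) with nApoE3. Cxcl1 held 0.270% ± 0.0282 (SD, n = 3) and 0.0475% ± 0.00176 (SD, n = 2), and Cxcl9 held 0.0180% ± 0.000425 (SD, n = 3) and 0.0815% ± 0.00302 (SD, n = 2). Among the minor ligands Cxcl1 thus held the largest share of reads with nApoE4 and Cxcl9 with nApoE3. Per kilobase of exon, which allows for gene length, Cxcl1 held 0.298% and Cxcl9 0.0123% with nApoE4. With nApoE3 they were nearly alike per kilobase, at 0.0524% for Cxcl1 and 0.0559% for Cxcl9, from 14 and 24 reads. For Cxcl1, Cxcl2 and Cxcl9, the exact two-sided permutation test gave p = 0.1, the smallest value that 3 samples against 2 allow, and 0.167 after adjustment over the 5 members, so the design cannot reach the threshold. Cxcl3 had p = 0.2 and Cxcl16 p = 0.3 by the same exact permutation test.

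The fragments were compared through their own controls, by an interaction over the 11 samples. The rise of Cxcl2 was larger with nApoE4 by 0.77 on the log2 scale (SE 0.20, 95% interval 0.33 to 1.22, adjusted p = 0.0125, edgeR). Of the 3 members in this fit, Cxcl2 alone passed, where 14.4% of all genes tested were higher with nApoE4 and 13.9% lower. Cxcl1 and Cxcl16 entered this fit through nApoE4 samples alone. Cxcl16 had a difference of 1.67 (SE 1.77, adjusted p = 0.533, edgeR). For Cxcl1 the difference of the fold changes could not be estimated, because both control groups were at 0.

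The Cxcl2 starting level differed between the experiments. In untreated cells, control A was below control B by a log2 difference of −0.69 (SE 0.27, adjusted p = 0.0465, edgeR), in a comparison where 34.9% of all genes tested were higher and 34.4% lower in control A. The controls did not overlap, but this call was lost with DESeq2 (adjusted p = 0.0528) and when any control sample but the first of control A was left out (adjusted p = 0.0658 to 0.136, edgeR). Cxcl2 was the only member of which enough reads were present to test in untreated cells.

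The treated samples were then compared directly, a contrast chosen after the data were seen. The Cxcl2 level was 0.063 higher with nApoE4 on the log2 scale (SE 0.068, 95% interval −0.084 to 0.21, adjusted p = 0.426, edgeR). The sizes side by side were thus 0.77 for the difference in fold change, −0.69 between the controls and 0.063 between the treated samples. Cxcl1 was 5.85-fold higher with nApoE4, a log2 difference of 2.55 (SE 0.37, adjusted p = 2.33e-04, edgeR). It was the only 1 of 3 members called higher, where 34.4% of all genes tested were higher and 34.1% lower. Cxcl1 and Cxcl16 passed the filter on low counts through nApoE4 samples alone, so both had to be high there. The Cxcl1 call and the count of members therefore add nothing beyond the read counts. Cxcl16 had a log2 difference of 1.60 (SE 0.75, adjusted p = 0.0750, edgeR). This became 3.48 (adjusted p = 0.0276) when the second nApoE3 sample, which held 7 of the 8 Cxcl16 reads of its group, was left out. In the fit without a filter, Cxcl9 was lower with nApoE4 by a log2 difference of −2.0 (SE 0.75, adjusted p = 0.0310, edgeR), with 6 reads against 24. Cxcl3 had 6 reads against 11, and its log2 difference of −0.89 did not pass (adjusted p = 0.510, edgeR). In this direct comparison, experiment and fragment are the same split.

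**Figure D2:**
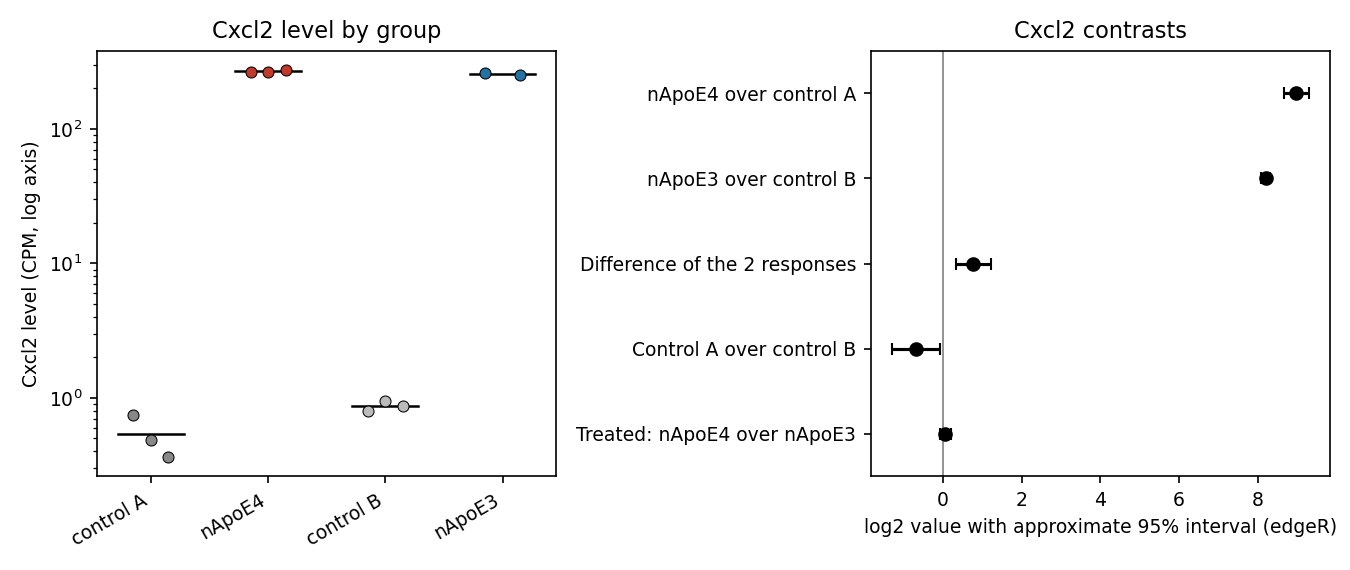
Left, Cxcl2 level in each sample in CPM on a log axis, with a line at the group mean. Right, log2 values of the 5 Cxcl2 contrasts with approximate 95% intervals from edgeR. Treated samples of both fragments sit at 254 to 274 CPM, and control A sits below control B.

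None of the other CXC ligands was called with either fragment. Pf4, the platelet ligand Cxcl4, was the only 1 of 9 others with enough reads to test. It had 280, 313 and 220 reads in control A and 212, 204 and 261 with nApoE4, and 478, 448 and 393 in control B and 443 and 422 with nApoE3. The treated samples overlapped the controls in both experiments, and the log2 fold changes were −0.15 (SE 0.17, adjusted p = 0.487) and 0.10 (SE 0.072, adjusted p = 0.227) by edgeR. Between the treated samples Pf4 was lower with nApoE4 by −0.46 (SE 0.15, adjusted p = 0.0166, edgeR), and its control difference was −0.18 (adjusted p = 0.271). Cxcl5, Cxcl13, Cxcl14, Cxcl15 and Ppbp had at most 7 reads in any sample.

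Cxcl10, Cxcl12 and Cxcl17 were at 0 reads in all 11 samples. Cxcl10, an interferon-induced partner of Cxcl9, lies wholly inside Art3 in the annotation, and Cxcl17 also lies wholly inside another gene. Of 820 protein-coding genes that lie wholly inside another gene, 757 (92.3%) were at 0 in all samples, against 2441 of 12194 (20.0%) of those that overlap none. The reads that fell on more than 1 gene, which counting left out, were 3.24 to 3.56% of all tallied reads. A count of 0 for Cxcl10 therefore does not show how much Cxcl10 RNA was present. Art3, a member of the ADP-ribosyltransferase family, had 24, 26 and 38 reads in control A and 57, 51 and 46 with nApoE4, and 41, 32 and 51 in control B and 173 and 150 with nApoE3. Its log2 fold change was 0.92 (SE 0.22, adjusted p = 0.00471) with nApoE4 and 2.08 (SE 0.21, adjusted p = 2.70e-06) with nApoE3 by edgeR. The difference of −1.16 passed (SE 0.32, adjusted p = 0.0169, edgeR) but not when the first nApoE3 sample was left out (adjusted p = 0.0731). Of the 6 genes listed as neighbours or as overlapping a member, 4 were higher and 1 lower with nApoE4, and 4 of 5 tested were higher and 1 lower with nApoE3, where 28.6% and 33.1% of all genes tested were higher and 28.6% and 34.6% lower.

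Of 8 genes of CXC receptors, 4 could be tested, of which 3 were lower and 1 higher with nApoE4, and 2 were lower and 1 higher with nApoE3. Over all genes tested, 28.6% were lower and 28.6% higher with nApoE4, and 34.6% lower and 33.1% higher with nApoE3, so the nApoE3 count of receptors was near that share. Cxcr2, the receptor of Cxcl1, Cxcl2 and Cxcl3, had 43, 53 and 49 reads in control A and 17, 16 and 17 with nApoE4, and 71, 71 and 69 in control B and 21 and 19 with nApoE3. The groups did not overlap, and Cxcr2 fell by a log2 fold change of −1.41 (SE 0.21, adjusted p = 3.12e-04) with nApoE4 and −1.69 (SE 0.23, adjusted p = 3.15e-05) with nApoE3 by edgeR. The Cxcr2 difference between fragments was 0.26 (95% interval −0.37 to 0.89, adjusted p = 0.621, edgeR).

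Cxcr3, the receptor of Cxcl9, had 186, 194 and 164 reads in control A and 45, 39 and 36 with nApoE4, a log2 fold change of −2.07 (SE 0.16, adjusted p = 2.97e-06, edgeR). It had 36, 29 and 39 reads in control B and 20 and 26 with nApoE3, which gave −0.47 and did not pass (SE 0.29, adjusted p = 0.170, edgeR). The difference between fragments was −1.61 (SE 0.31, adjusted p = 0.00157, edgeR), and control A itself was higher than control B by 2.89 (SE 0.18, adjusted p = 4.46e-06, edgeR). Cxcr3 was thus at 4.07 CPM in control A, 0.965 with nApoE4, 0.557 in control B and 0.402 with nApoE3.

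Cxcr4, the receptor of Cxcl12, had the largest fall of the 4. It had 960, 1057 and 1143 reads in control A and 58, 58 and 76 with nApoE4, and 1831, 1498 and 1550 in control B and 363 and 315 with nApoE3. The groups were far apart, with a log2 fold change of −3.92 (SE 0.12, adjusted p = 6.75e-09) for nApoE4 and −2.14 (SE 0.071, adjusted p = 6.04e-11) for nApoE3 by edgeR. The fall was larger with nApoE4 by −1.79 (SE 0.15, adjusted p = 2.09e-06, edgeR), and the controls did not pass as different (−0.12, 95% interval −0.26 to 0.019, adjusted p = 0.107, edgeR). Without the second control B sample, the Cxcr4 control difference did pass (−0.18, adjusted p = 0.0461, edgeR). Cxcr5, the receptor of Cxcl13, had 22, 25 and 19 reads in control A, 24, 41 and 44 with nApoE4, 28, 30 and 15 in control B and 47 and 36 with nApoE3. Its log2 fold changes of 0.84 (SE 0.30, adjusted p = 0.0350) and 0.90 (SE 0.28, adjusted p = 0.0138) passed in edgeR, although the lowest nApoE4 read count overlapped the controls. Cxcr6, the Cxcl16 receptor, which lies wholly inside another gene, was at 0 in all samples, as were Ackr1 and Ackr3. Of the Ackr1 span, 99.6% lies inside another gene, while Ackr3 overlaps none.

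**Figure D3:**
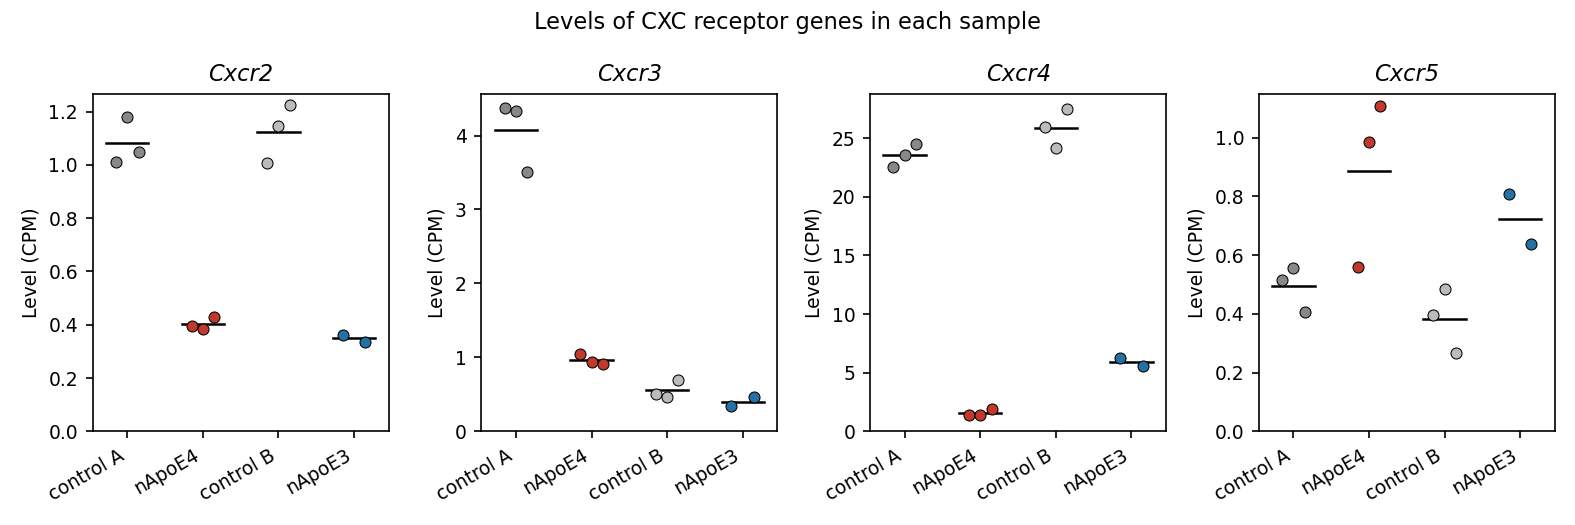
Level of 4 CXC receptor genes in each sample in CPM on linear axes from 0, with a line at the group mean. Cxcr2 and Cxcr4 sit below their controls with both fragments, and Cxcr3 sits at 4.07 CPM on average in control A and 0.557 in control B.

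Of the 4 genes listed for the shedding of Cxcl16, Adam17 and Rhbdf2 rose and Adam10 fell with both fragments. Rhbdf1 was not called with nApoE4 and did not reach the filter on low counts with nApoE3. Over all genes tested, 28.6% were higher and 28.6% lower with nApoE4, and 33.1% higher and 34.6% lower with nApoE3. Adam17, the inducible sheddase, went from 185 ± 8.48 (SD, n = 3) to 459 ± 11.9 (SD, n = 3) CPM with nApoE4 and from 234 ± 5.03 (SD, n = 3) to 548 ± 9.30 (SD, n = 2) with nApoE3. These were log2 fold changes of 1.32 (SE 0.063, adjusted p = 1.08e-07) and 1.22 (SE 0.024, adjusted p = 4.54e-13) by edgeR. Rhbdf2, which brings Adam17 to the cell surface, rose by 2.42 (SE 0.067, adjusted p = 3.16e-09) and 2.19 (SE 0.047, adjusted p = 1.11e-12). Adam10, the constitutive sheddase, fell by a log2 fold change of −0.34 (SE 0.056, adjusted p = 5.95e-04) and −0.44 (SE 0.025, adjusted p = 8.86e-09). No gene of this list passed the test of the difference between fragments over all 11 samples. The Rhbdf2 difference of 0.22 (adjusted p = 0.0883, edgeR) passed without the third nApoE4 sample (0.27, adjusted p = 0.0494) and without the first control B sample (0.28, adjusted p = 0.0434).

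All 13 genes of the NF-kB list rose with both fragments, with a median log2 fold change of 2.00 for nApoE4 and 1.58 for nApoE3, against a median near 0 over all genes tested, of which 28.6% and 33.1% were higher. Nfkbiz, an atypical IκB that assists transcription, rose by 4.02 (SE 0.081, adjusted p = 5.90e-10) and 3.75 (SE 0.038, adjusted p = 2.47e-15) by edgeR. The inhibitors Nfkbie and Nfkbia, which NF-kB itself induces, rose by 3.88 and 3.41 with nApoE4 and by 3.13 and 2.70 with nApoE3. Of the 13, 9 rose more and 1 rose less with nApoE4, where 14.4% of all genes tested had a higher value and 13.9% a lower one, the largest difference being that of Relb, an NF-kB subunit, at 1.37 (SE 0.096, adjusted p = 5.22e-07, edgeR).

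Of 10 interferon axis genes tested, 8 rose and 1 fell with nApoE4, and 8 rose and 2 fell with nApoE3, where 28.6% and 33.1% of all genes tested were higher and 28.6% and 34.6% lower. Ifnb1, the gene of interferon beta, went from 4 to 123 summed reads with nApoE4 and from 19 to 147 with nApoE3, log2 fold changes of 4.93 (SE 0.51, adjusted p = 2.43e-05) and 3.63 (SE 0.34, adjusted p = 1.11e-06) by edgeR. Irf7, which amplifies interferon responses, rose by 3.89 with nApoE4 and 5.33 with nApoE3, a difference of −1.44 (SE 0.20, adjusted p = 1.33e-04, edgeR). Irf1, a transcription factor acting on genes such as Cxcl9, rose by 3.71 (SE 0.068, adjusted p = 4.08e-10) with nApoE4 and by 2.44 (SE 0.049, adjusted p = 6.28e-13) with nApoE3, a difference of 1.26 (SE 0.091, adjusted p = 6.52e-07, edgeR).

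Of 7 genes tested that control the stability of chemokine mRNA, 3 were higher and 2 lower with nApoE4, and 5 were higher and 2 lower with nApoE3. The shares over all genes were 28.6% higher and 28.6% lower with nApoE4 and 33.1% higher and 34.6% lower with nApoE3, so the nApoE4 count was near the background. Zc3h12a, the RNase regnase-1, rose by 1.99 (SE 0.074, adjusted p = 1.95e-08) and 2.61 (SE 0.051, adjusted p = 4.57e-13) by edgeR. Zfp36, tristetraprolin, which promotes decay of AU-rich mRNAs, rose by 0.98 (SE 0.065, adjusted p = 1.06e-06) and 1.48 (SE 0.032, adjusted p = 1.28e-12). Both rises were smaller with nApoE4, by −0.62 (SE 0.099, adjusted p = 4.56e-04) and −0.51 (SE 0.077, adjusted p = 3.30e-04) by edgeR. The relatives of Zfp36 went down with both fragments. Zfp36l2 fell by −1.24 (SE 0.072, adjusted p = 4.07e-07) with nApoE4 and −0.36 (SE 0.028, adjusted p = 1.89e-07) with nApoE3 by edgeR. Zfp36l1 fell by −0.95 (SE 0.066, adjusted p = 1.51e-06) with nApoE4 and −1.26 (SE 0.063, adjusted p = 2.64e-09) with nApoE3 by edgeR.

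**Figure D4:**
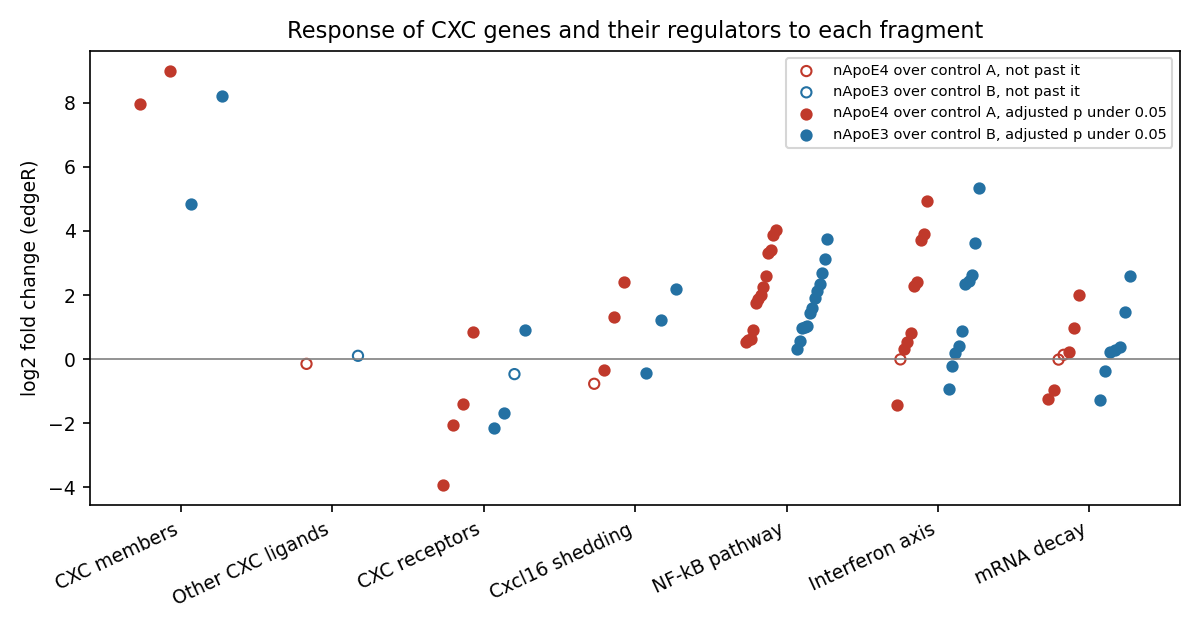
Log2 fold change from edgeR of each gene tested in 7 lists, with nApoE4 over control A in red and nApoE3 over control B in blue. Filled points have an adjusted p under 0.05, all 13 NF-kB genes lie above 0 with both fragments, and 3 receptor genes lie below 0 with both.

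The genes whose pattern over the 11 samples was most like that of Cxcl2 were Acod1, Gbp5 and Gbp2. Likeness was the root mean square difference of log2(CPM + 0.1) after centring each gene within its experiment, over 12425 candidate genes, and was 0.295 for Acod1, 0.313 for Gbp5 and 0.525 for Gbp2. Acod1, the enzyme that makes itaconate, rose by a log2 fold change of 8.34 (SE 0.12) with nApoE4 and 7.59 (SE 0.065) with nApoE3. Gbp5, a guanylate-binding protein, rose by 9.37 (SE 0.11) and 8.12 (SE 0.11). The nearest genes were Arhgef3 for Cxcl1, Adamtsl5 for Cxcl3, Tmem140 for Cxcl9 and Cubn for Cxcl16. At the low levels of these 4 members, the constant added before taking logs shrinks their range, and their nearest genes changed by less on the log2 scale than the members' own ratios.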

How the data were processed

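RNA of BV2 cells was sequenced as single-end reads of 75 bases. Per the labels and the submitters' processing notes, the authors trimmed reads with Trim Galore 0.5.0, checked them with FastQC 0.11.8, mapped them to GRCm38.p6 with HISAT2 2.1.0 and counted them on genes with HTSeq 0.11.0. The authors deposited these whole-number counts per gene without normalization, for 36529 genes per sample. The annotation release, strand setting and overlap mode are not given in the sources used here. Reads counted on genes were 76.0 to 77.7% of all tallied reads, unaligned reads included, and the other tallies were left out of library sizes.

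Groups were taken from the sample titles. Tests were run on these counts with edgeR 4.0.16 under R 4.3.3 (filterByExpr, TMM, the quasi-likelihood F test, Benjamini-Hochberg adjustment over all genes tested, threshold 0.05). Treated samples were set against the controls of their own experiment, the fragments by an interaction over 11 samples and the controls with each other. Standard errors are approximate, from the F statistic. CPM used TMM factors over all 11 samples, and lengths were exon unions. A gene at 0 in a control group was set against a floor of 3 counts over that group. The pipeline was tested on simulated data. DESeq2 1.42.0, its size factors, other count filters, all samples in a single fit, a replicate block and leaving out each sample were the alternatives.

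Values are given for every member, for list genes with at least 1 CPM in some group (other ligands, receptors, shedding) and for the 3 most changed called genes of the longer lists. Hpn and Il16 and genes named for a count of 0 were named after their values were seen. A gene of the interferon list is not reported here and was left out of its counts. The members and lists were chosen with earlier results of these data known.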

Additional observations from a re-analysis of the deposited data

Results flagged for a closer look

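The response to the fragments differed in the interaction test (edgeR, adjusted p under 0.05) for 19 of the genes chosen by the rule for named genes, each given as the nApoE4 minus the nApoE3 log2 fold change. Over all genes tested, 14.4% had a higher and 13.9% a lower value in this test. For the longer lists, the rule takes the most changed called genes of each comparison, this test included. The 19 were thus partly chosen for passing, and their number is not a result. Among ligands and receptors, the value was 0.77 for Cxcl2, −1.61 for Cxcr3 and −1.79 for Cxcr4, and it was −1.16 for Art3, the gene around Cxcl10. In the NF-kB list, it was 1.37 for Relb, 0.84 for Rel, 0.74 for Nfkbie, 0.71 for Nfkbia, 0.32 for Bcl3 and 0.26 for Nfkbiz. In the interferon list, it was 1.26 for Irf1 and 0.37 for Ifnar2, and −1.44 for Irf7, −0.51 for Irf8 and −0.35 for Stat2. In the mRNA decay list, it was 0.30 for Zfp36l1, and −0.89 for Zfp36l2, −0.62 for Zc3h12a and −0.51 for Zfp36. Listed genes outside that rule also passed, with values of 0.40 for Nfkbib, 0.24 for Nfkb2, 0.22 for Chuk, −0.37 for Ikbkg, −0.36 for Ifngr2, 0.39 for Nup54 and −0.27 for Sdad1, as did 8 cell type markers. Among these markers, the microglia and macrophage list had 2 higher and 3 lower of 10 tested. The fragments were run in separate experiments, so fragment and experiment cannot be told apart in any of these values.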

How the results depend on the processing

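The Cxcl2 rise kept its direction and its call with both fragments under every alternative run, including DESeq2, and so did the Cxcl1 rise with nApoE4 wherever Cxcl1 was tested. Under a filter on low counts, Cxcl1 was tested only where its treated samples were high, so its call adds nothing beyond its read counts. With the replicate number as a block, the Cxcl2 difference between fragments was 0.77 with an adjusted p of 0.10 (edgeR), no member was called in that comparison (0 of 3), and 2307 of 15287 genes were called against 4331. The block changed no other call of a member. Deviations of same-numbered samples from their group means correlated at −0.215 to −0.00271, so the shared numbers were not treated as pairs. Requiring at least 10 counts in every sample left Cxcl2 alone to test, so 1 member was called with each fragment and 0 in the direct comparison of treated samples. Without a filter, 3 members were called with nApoE4, 4 with nApoE3 and 2 in the direct comparison. The members called changed with those each filter let in, so these numbers are not a result about the members. With DESeq2, the Cxcl2 control difference was −0.70 (adjusted p = 0.0528) and 0 members were called.

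Leaving out single samples, the control difference of Cxcl2 ranged from −1.01 to −0.47 and the members called there from 0 to 1. In those fits, 8949 to 10988 genes in all were called. The members called ranged from 2 to 3 with nApoE4, where 7142 to 8827 genes in all were called. With nApoE3 and in the direct comparison, leaving out an nApoE3 sample left 1 in its group, so no range of calls is given. The Cxcl16 interaction ranged from −1.18, without the first control B sample, to 3.55, and its direct difference from 0.79 to 3.48, the latter without the second nApoE3 sample. The Art3 control difference, −0.0030, became 0.0064 with at least 10 counts per sample and ranged from −0.20 to 0.26 without single samples, and that of Cxcr2, −0.039, ranged from −0.13 to 0.018. Neither control difference passed the test in any of these fits. Per kilobase, the shares of member reads with nApoE3 were 0.0524% for Cxcl1, 99.9% for Cxcl2, 0.0219% for Cxcl3 and 0.0559% for Cxcl9, and 0.0123% for Cxcl9 with nApoE4. The causes were not tested, except where a filter set which genes were tested.

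Depth limits Cxcl3, Cxcl9 and Cxcl16, each at 12 reads or fewer in every sample. A missed threshold in these genes does not show that levels were alike. Intervals and floors cover counting error only.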
